A study of Saccharomyces cerevisiae with 10 samples.

Results

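The ptc5 mutant strain of budding yeast, Saccharomyces cerevisiae, taken here as a deletion of PTC5, had its transcripts compared with those of the wild type (wt). The comparison used the 2 arrays titled as ptc5 against wt, out of 10 arrays in the series, chosen by their titles and not by any measured value. Of 6212 listed open reading frames, 4245 had a value on both arrays, 812 on 1 and 1155 on neither, and a gene's level below is the mean of its 2 values. The series set 5 mutants, ptc5 and its relatives ptc1, ptc2, ptc3 and ptc4, against the same wt. Cultures of ptc5 and of wt alike grew in YPD, a rich glucose medium, at 28 °C and were taken at an absorbance of 0.6 to 0.8. The mutant RNA was labelled with Cy5 on array 1 and with Cy3 on array 2. The design text lists 1 RNA sample per strain with a dye swap, so the arrays are technical repeats of 1 extract and no test of ptc5 against wt is possible. For the mutant, neither the allele and strain background nor the mating type and number of clones is given in the sources used here.

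Ptc5 is a type 2C protein phosphatase of the mitochondrion. It removes phosphate from Pda1, a subunit of the pyruvate dehydrogenase complex, which turns pyruvate from glycolysis into the acetyl units burned in the tricarboxylic acid (TCA) cycle. The kinases Pkp1 and Pkp2 add that phosphate and switch the complex off, and the phosphatases Ptc5 and Ptc6 take it away again. On glucose, yeast sends most of its pyruvate to ethanol and holds respiratory genes low.

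Values are log2 ratios of ptc5 over wt, so 1 stands for a 2-fold higher and −1 for a 2-fold lower level in ptc5. The base was assumed, since the labels leave it unstated; with natural logarithms every fold would be larger than printed. Over all genes the median was 0.02, with 0.05 on array 1 and −0.015 on array 2. The 2 arrays of ptc5 correlated with r = 0.34 across genes. The difference between the arrays correlated with that of each other mutant, with r from 0.42 to 0.66, and the array number coincides with the dye orientation. The median SD of a gene's 2 values was 0.17. A ratio from a whole culture cannot tell fewer cells with a transcript from less of it per cell.

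PTC5 itself was the lowest gene. Its log2 ratio was −2.43 and −2.34 on the 2 arrays, a level 5.21-fold lower in ptc5. Neither array overlapped the other mutants, in which PTC5 averaged −0.03, 0.35, −0.06 and −0.03 in ptc1 to ptc4. The genes on either side stayed near the array medians. VPS21 and TMA46, the direct neighbours, were at 0.15 and 0.02, and YVC1, TCB1 and ECM3, the next ones out, at 0.00, 0.12 and −0.17. Among the other phosphatases of the family, PTC6, whose protein acts on the same enzyme as Ptc5, was at −0.32 and −0.49. PTC7, another mitochondrial member, was at −0.17 and −0.26, and both were below 0 on either array. PTC1 was at −0.10 and 0.42 and PTC3 at 0.21 and −0.14, so their arrays disagreed. PTC2 had a value on array 2 only, 0.10, and PTC4 on neither. Markers of other cell states were also read: 5 of 6 a-cell markers were measured and lay between −0.13 and 0.26, and 4 of 8 meiosis markers between −0.53 and 0.17. Only 1 of 4 alpha-cell markers was measured, SAG1, at −0.125.

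A gene was called 2-fold apart when its mean log2 ratio was at least 1 in size and both arrays were at least 1.5-fold in that direction. By this rule 3 genes, 0.0707% of those measured, were higher in ptc5 and 27, or 0.636%, were lower. With array 1 alone the counts were 11 and 67, and with array 2 alone 10 and 31. At 1.5-fold on both arrays 20 genes, 0.471%, were higher and 60, 1.41%, were lower. Array 1 alone held 95 genes 1.5-fold higher and 244 lower, and array 2 alone 146 higher and 126 lower. Lower genes thus outnumbered higher ones by the 2-fold rule on either array, but by the 1.5-fold rule on array 1 and not on array 2. The higher genes nearest inside the 2-fold limit were BSC1 at 1.30 and PHO84 at 1.39, and the nearest outside were PHO12 at 0.99 and SIT1 at 0.95. On the lower side TPO4 at −1.0005 and IMA4 at −1.01 were just inside, and PAU6 at −0.98 and CMK2 at −0.97 just outside. Many of the 27 lower genes were also lower in ptc2. There 19 had a value on both arrays, with a median of −1.21, and 15 of those met the same 2-fold rule. In ptc1, ptc3 and ptc4 it was 0 of 11, 1 of 20 and 3 of 21.

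**Figure D1:**
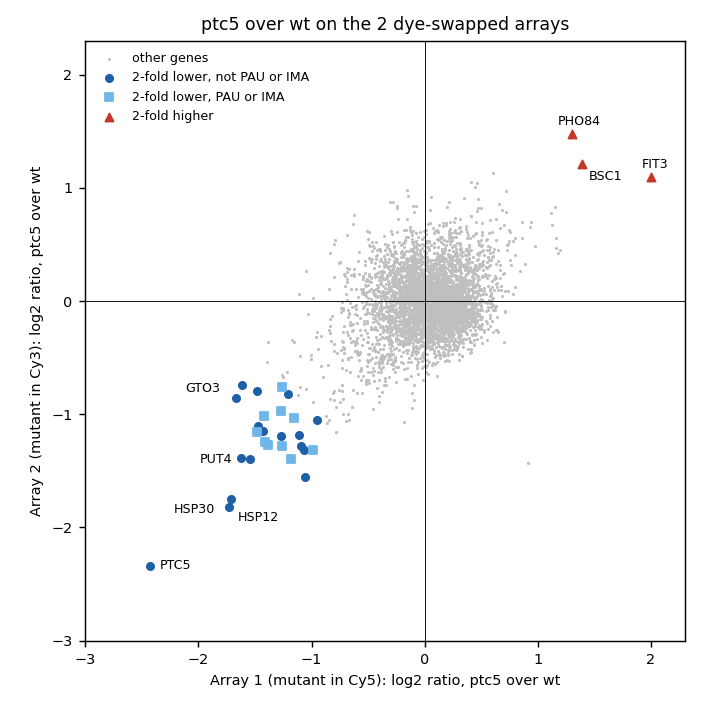
Log2 ratio of ptc5 over wt on array 1 (x axis) and array 2 (y axis) for each of 4245 genes (grey points); coloured points are the 3 genes 2-fold higher and the 27 genes 2-fold lower. PTC5, HSP12 and HSP30 have the lowest means, at −2.38, −1.78 and −1.73, and FIT3, PHO84 and BSC1 the highest, at 1.55, 1.39 and 1.30.

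The 3 higher genes act at the cell surface or resemble genes that do. FIT3 encodes a wall protein that helps hold iron bound to siderophores, the iron carriers that microbes secrete. It was at 2.00 and 1.10 on the 2 arrays, a mean of 1.55 ± 0.63 (SD) or 2.92-fold higher in ptc5, so its arrays differed more than those of PHO84 and BSC1. In ptc1 to ptc4 FIT3 averaged −0.31, 0.82, 0.60 and 1.515. PHO84, the high-affinity phosphate transporter, was at 1.305 and 1.47, 2.62-fold higher. It averaged 0.04, 1.84, 1.06 and 0.74 in ptc1 to ptc4, so that ptc2 had the highest mean of the 5 mutants and ptc5 the next. BSC1, a gene that resembles flocculins, was at 1.39 and 1.21, 2.46-fold higher, and averaged 0.56, 0.42 and 1.83 in ptc1, ptc2 and ptc4. For all 3 genes both ptc5 arrays lay above the ptc1 mean. All mutants were set against the same wt RNA, so these values are not independent of each other.

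The iron and phosphate genes were then read as groups. Of 7 siderophore uptake genes 6 were measured, and their median log2 ratio was 0.74 against 0.02 for all genes. All but FIT1 were above 0 on both arrays, where 27.8% of all genes were, and 4 were at least 1.5-fold higher on both. Besides FIT3 these were the siderophore transporter genes SIT1 at 1.12 and 0.78, ARN1 at 0.935 and 0.70, and ARN2 at 0.63 and 0.72. FIT2, a second siderophore-holding wall protein, was at 0.65 and 0.45, while FIT1 was at 0.19 and −0.05. The genes of reductive iron uptake and iron use lay much closer to 0. Their median was 0.11 over 18 of 24 genes, with 8 above 0 on both arrays, 2 below and none 1.5-fold apart. Of all genes, 0.471% were 1.5-fold higher on both arrays and 1.41% lower. FRE1, a surface metalloreductase, was at 0.31 and 0.35, and FET3 and FTR1, the high-affinity iron oxidase and permease, averaged 0.18 and 0.25. FRE5, of the same reductase family, was the largest in size, at −0.30 and −0.47. In the other mutants the siderophore median was −0.21, 0.80, 0.40 and 0.80 in ptc1 to ptc4.

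Phosphate genes, the targets of the factor Pho4, had a median of 0.40 over 14 of 19 genes, with 9 above 0 on both arrays and none below. Of all genes, 27.8% were above 0 on both arrays and 23.3% below. The 4 at least 1.5-fold higher on both arrays were PHO84, the acid phosphatase genes PHO12 and PHO11, and VTC3. PHO12 was at 1.15 and 0.83 and PHO11 at 1.12 and 0.67, but their near-identical sequences can share hybridisation. VTC3 and VTC1, subunits of the vacuolar polyphosphate polymerase, were at 0.71 and 0.97 and at 0.76 and 0.36. SPL2 was at 0.46 and 0.79, and PHO81, the inhibitor of the Pho80-Pho85 kinase, at 0.42 and 0.39. PHO89, a sodium-dependent phosphate transporter gene, was at 0.06 and −0.04. The regulators themselves were nearer to 0, with a median of 0.12 over 8 of 12 genes. VIP1, an inositol pyrophosphate kinase gene, led them at 0.36 and 0.41, PHO4 was at −0.20 and −0.02, and PHO85 at 0.29 and −0.05. The median of the Pho4 targets was 0.05, 0.62, 0.22 and 0.18 in ptc1 to ptc4.

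**Figure D2:**
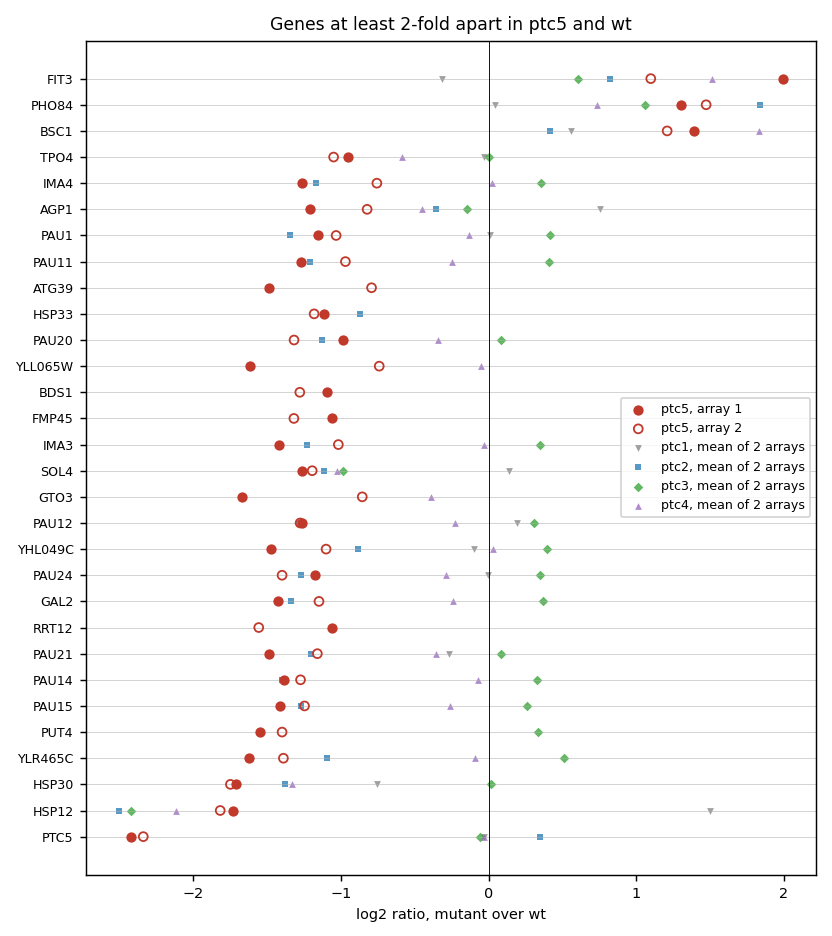
Log2 ratio over wt (x axis) of the 30 genes 2-fold apart in ptc5 and wt (rows, sorted by the ptc5 mean); filled and open red circles are ptc5 arrays 1 and 2, and the other symbols are the means of ptc1 to ptc4 where both arrays had a value. The PAU and IMA genes lie near the ptc2 means, and HSP12 is below 0 in all mutants but ptc1.

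Stress genes led the lower side. HSP12, a small heat shock protein that lines membranes, was at −1.73 and −1.82, 3.42-fold lower in ptc5. HSP30, a heat shock protein of the plasma membrane that restrains the proton pump Pma1, was at −1.71 and −1.75, 3.32-fold lower. The SD of the 2 arrays was 0.06 for HSP12 and 0.03 for HSP30, below the median SD of all genes. Across ptc1 to ptc4 HSP12 averaged 1.497, −2.50, −2.42 and −2.115, and HSP30 averaged −0.76, −1.38, 0.02 and −1.33, so HSP30 had its lowest mean in ptc5. SOL4, a 6-phosphogluconolactonase of the pentose phosphate pathway, was at −1.27 and −1.195, and averaged 0.14, −1.12, −0.98 and −1.03 in ptc1 to ptc4. HSP33, of the family of HSP31, was at −1.11 and −1.18, and averaged −0.87 in ptc2. GTO3, a glutathione transferase, was at −1.67 and −0.86, and GAD1, the glutamate decarboxylase gene next to it on the chromosome, at −0.875 and −1.01.

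Of 28 general stress genes 19 were measured, with a median of −0.29. Of these 12 were below 0 on both arrays, where 23.3% of all genes were, 2 were above, and 5 were at least 1.5-fold lower. After HSP12, SOL4 and GAD1 these were SPI1, a wall protein, at −0.70 and −1.06, and MSC1 at −0.68 and −0.996. HSP26, a small heat shock protein of the cytosol, was above 0 at 0.35 and 0.16. The trehalose and glycogen genes had a median of −0.32 over 14 of 20, with 8 below 0 on both arrays and none above. PGM2, the main phosphoglucomutase, was at −0.72 and −1.0. GAC1, which brings the phosphatase Glc7 to glycogen synthase, was at −0.84 and −0.86, and GLC3, the glycogen branching enzyme, at −0.73 and −0.80. GSY2, the main glycogen synthase, was at −0.57 and −0.61. The trehalose and glycogen median was 0.13, −0.26, −0.23 and −0.38 in ptc1 to ptc4. Among osmostress and glycerol genes, with a median of −0.15 over 15 of 19, STL1, the glycerol importer, was at −1.26 and −0.67, while the glycerol phosphatase gene GPP1 was at 0.42 and 0.24. The general stress median was 0.25, −0.27, −0.51 and −0.42 in ptc1 to ptc4.

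Seripauperins, the PAU genes, were the largest family among the lower genes. These encode small wall-related proteins of a near-identical family at chromosome ends, known for expression in anaerobic or cold cells, and their probes can share hybridisation. Of 24 PAU genes 16 were measured, and all 16 had a mean below 0. On both arrays 14 were below 0, where 23.3% of all genes were. The median was −1.035, and 8 met the 2-fold rule, among them PAU14 at −1.39 and −1.27, PAU12 at −1.26 and −1.28, and PAU24 at −1.18 and −1.40. PAU4 and PAU23 were the members nearest 0, at −0.10 and −0.01. The PAU median was −0.001, −1.11, 0.16 and −0.24 in ptc1 to ptc4. The TIR, DAN and related anaerobic genes had a median of −0.01 over 10 of 17, with TIR1 at 0.62 and 0.15. The isomaltase genes IMA3 and IMA4, a near-identical pair, were at −1.42 and −1.02 and at −1.26 and −0.76. IMA1 and IMA2 were closer to 0, at −0.34 and −0.08 in the mean.

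Many of the 2-fold lower genes lay near chromosome ends, and most of those were PAU or IMA genes. Gene order was taken from the RefSeq annotation of assembly R64, in which 25 of the 27 lower genes were placed. Of these, 13, or 52.0%, were among the 15 outermost genes of a chromosome arm, against 6.28% of all measured genes that were placed. Without the PAU and IMA genes it was 3 of 15, and among the 1.5-fold lower genes without those families 10 of 46. On the higher side 7 of the 20 genes 1.5-fold higher on both arrays were outermost genes. These were PHO84, PHO11, PHO12, FIT3, SIT1, ARN1 and ARN2, all members of the phosphate and siderophore groups above. No higher gene outside those groups was an outermost gene. Some frames at the very ends have no gene name. YHL049C was at −1.47 and −1.10 and its outer neighbour YHL050C at −0.80 and −0.79. YHR218W was at −0.86 and −1.07, and YLR465C, a frame without a RefSeq entry, at −1.62 and −1.39. Whether probes of these frames share hybridisation was not tested. The COS and YRF1 families of chromosome ends had 3 of 20 genes measured. Their means lay between −0.11 and 0.11, with YRF1-6 at −0.11 on both arrays. Neighbours that were both 1.5-fold lower were YHL050C with YHL049C, GAD1 with GTO3, and GAL2 with EMP46.

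Nutrient permease genes made a further group. PUT4, the proline permease, was at −1.55 and −1.40, 2.775-fold lower in ptc5. It had values on 3 of the 8 arrays of other mutants, with a mean of 0.34 in ptc3 and 0.12 on the 1 ptc4 array. AGP1, a broad amino acid permease, was at −1.21 and −0.82, and averaged 0.75, −0.36, −0.145 and −0.45 in ptc1 to ptc4. OPT2, of the oligopeptide transporter family, was at −1.05 and −0.77. Permease genes did not share 1 direction: of 20 measured out of 25, 8 were above 0 on both arrays and 8 below, with a median of 0.03. The shares over all genes were 27.8% above and 23.3% below. TAT1 and GNP1, also amino acid permeases, were at 0.56 and 0.39 and at 0.47 and 0.27. The genes that use proline and other nitrogen sources had a median of −0.19 over 13 of 24, with GLN1, the glutamine synthetase, at −0.39 and −0.49. GAL2, the galactose permease, was at −1.43 and −1.15, whereas the galactose regulators GAL3 and GAL80 averaged 0.075 and 0.00. In ptc2 to ptc4 GAL2 averaged −1.34, 0.37 and −0.24. TPO4, a polyamine exporter, was at −0.95 and −1.05.

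The remaining lower genes were measured on few other arrays. RRT12, a subtilisin-like protease of spore wall formation, was at −1.06 and −1.56, and FMP45, a membrane protein also linked to sporulation, at −1.06 and −1.32. BDS1, a sulfatase, was at −1.095 and −1.28, ATG39, an autophagy receptor of the nuclear envelope, at −1.485 and −0.79, and YLL065W, without a RefSeq entry, at −1.62 and −0.74. RRT12, FMP45 and BDS1 each had 1 value among the 8 other arrays. Of the 27 lower genes, 10, or 37.0%, had a value on all 10 arrays, against 84.9% of all measured genes, and 8 had values on at most 4 of the 8 other arrays, against 129 of 4245. The authors left out dim spots, and whether these genes were among the dimmer ones kept was not tested.

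Genes of pyruvate oxidation, the process on which Ptc5 acts, were examined member by member. None of the 7 measured of 8 was 1.5-fold apart, where 0.471% of all genes were higher and 1.41% lower by that rule. The median was −0.14, with −0.02 on array 1 and −0.24 on array 2. On both arrays 4 of the 7 were below 0 and 0 above, where 23.3% and 27.8% of all genes were. The regulatory enzymes lay below 0 on both arrays. PTC6 averaged −0.40 ± 0.12 (SD, n = 2 arrays of 1 extract), the kinase gene PKP1 −0.35 ± 0.15 and the kinase gene PKP2 −0.24 ± 0.13. Among the subunits, LPD1, the dihydrolipoyl dehydrogenase, was at −0.02 and −0.27. PDA1 was at 0.42 and −0.17, PDB1 at 0.39 and −0.001, and LAT1 at 0.28 and −0.21, so the arrays did not give these 3 a direction. PDX1 was not measured on both. Genes for thiamine and lipoate, cofactors of the complex, had a median of −0.03 over 14 of 23, led by THI21 at −0.58 and −0.47.

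Downstream of the complex, most respiratory genes lay below 0 on both arrays, by less than the 1.5-fold rule asks. Respiratory chain genes had a median of −0.52 over 16 of 23, with 15 below 0 on both arrays, where 23.3% of all genes were. None was 1.5-fold lower on both, where 1.41% of all genes were. CYT1, cytochrome c1, was at −0.41 and −0.83, NDI1, the internal NADH dehydrogenase, at −0.50 and −0.69, and COX4, a cytochrome oxidase subunit, at −0.46 and −0.65. QCR2, of the bc1 complex, differed most between arrays, at −0.18 and −1.07. ATP synthase genes had a median of −0.41 over 11 of 17, with 9 below 0 on both arrays. ATP20 was at −0.57 and −0.62, and STF2, a regulator of the enzyme and the 1 member 1.5-fold lower on both arrays, at −0.72 and −0.87. The ATP synthase median was 0.07, −0.27, −0.31 and −0.40 in ptc1 to ptc4. TCA cycle genes had a median of −0.06 over 13 of 17, with 7 below and 1 above 0 on both arrays. MDH1, the mitochondrial malate dehydrogenase, was at −0.16 and −0.69, SDH1 of succinate dehydrogenase at −0.36 and −0.33, and CIT1, the citrate synthase, at −0.01 and −0.11. Mitochondrial ribosomal protein genes had a median of −0.01 over 52 of 71. The respiratory chain median was 0.12, −0.28, −0.37 and −0.505 in ptc1 to ptc4.

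**Figure D3:**
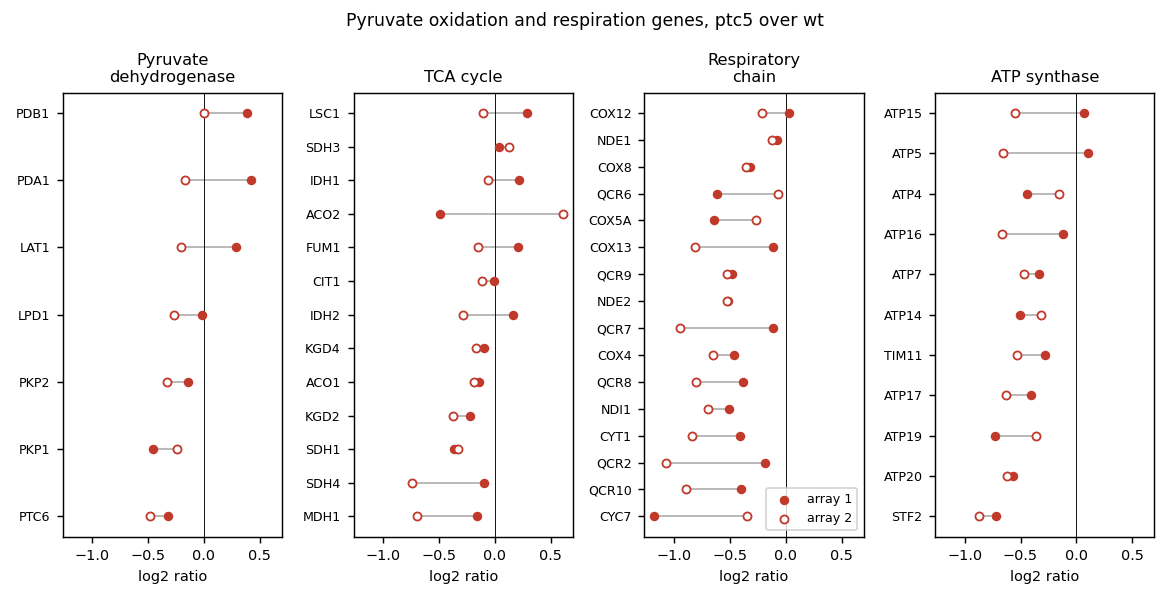
Log2 ratio of ptc5 over wt (x axes) for measured genes of pyruvate dehydrogenase, the TCA cycle, the respiratory chain and ATP synthase (rows), with array 1 filled and array 2 open and a line joining them. Of 16 respiratory chain genes 15 are below 0 on both arrays, while PDA1, PDB1 and LAT1 straddle 0.

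Genes of the retrograde response, by which cells answer a failing mitochondrion, had a median of 0.09 over all 12. CIT2, the peroxisomal citrate synthase that marks this response, was at 0.74 and 0.53, DLD3, a cytosolic lactate dehydrogenase, at 0.57 and 0.60, and ATO3, an ammonium exporter, at 0.62 and 0.22. The remaining 9, among them the regulators RTG1, RTG2 and RTG3, averaged between −0.17 and 0.15. CIT2 averaged 1.47, 0.19, 0.25 and 0.57 in ptc1 to ptc4. Glycolysis genes had a median of 0.23 over all 15, but 0.50 on array 1 and −0.01 on array 2. On both arrays 6 were above 0, where 27.8% of all genes were. PFK1, of phosphofructokinase, was at 0.50 and 0.34, whereas FBA1, the aldolase, was at 0.70 and −0.37.

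Most ribosome biogenesis genes lay above 0, although few were 1.5-fold apart. Of 44 ribosome biogenesis genes 38 were measured, with a median of 0.415, and 35 were above 0 on both arrays, where 27.8% of all genes were. Of the 38, 2 were 1.5-fold higher on both arrays, DBP2 and NOP7, and 0 met the 2-fold rule. NOP12, a ribosome assembly factor, was at 1.16 and 0.56, DBP2, an RNA helicase, at 0.86 and 0.70, NSR1, a nucleolar protein, at 0.97 and 0.48, and NOP7, another assembly factor, at 0.67 and 0.645. NOP1, the rRNA methyltransferase fibrillarin, and RRP9 were the members below 0 on both arrays, with NOP1 at −0.26 and −0.71. Ribosomal protein genes of the small and large subunits had medians of 0.08 and 0.08 over 47 and 65 genes, with 0.26 and 0.25 on array 1 but −0.17 and −0.10 on array 2, so their direction turned with the array. The ribosome biogenesis median was −0.07, 0.54, 0.23 and 0.39 in ptc1 to ptc4. Purine synthesis and one-carbon genes had a median of −0.42 over 15 of 16. Of these 13 were below 0 on both arrays, where 23.3% of all genes were. MTD1, of one-carbon metabolism, was at −0.60 and −0.81, and ADE17 and ADE1, enzymes of the pathway, at −0.56 and −0.81 and at −0.52 and −0.70. The median of this list was −0.25, −0.22, −0.24 and −0.52 in ptc1 to ptc4, so it was below 0 in all mutants and lowest in ptc4.

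**Figure D4:**
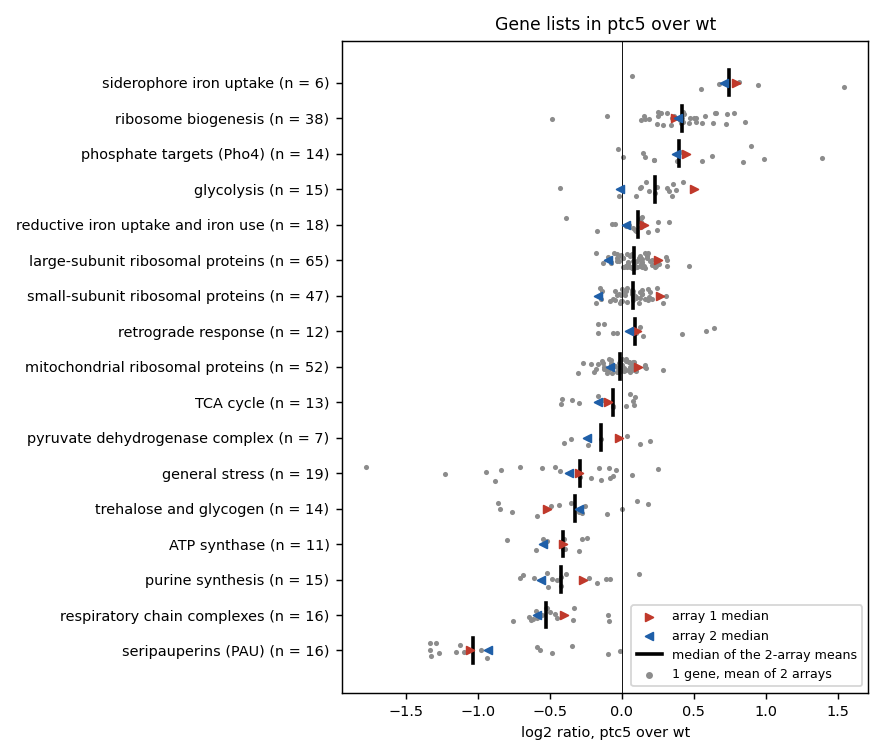
Log2 ratio of ptc5 over wt (x axis) for the members of 17 gene lists (rows; n is the number measured on both arrays); grey points are genes, black bars medians, and red and blue triangles the medians on arrays 1 and 2. The siderophore, ribosome biogenesis and phosphate medians lie above 0 on both arrays, the respiratory and PAU medians below, and the glycolysis and ribosomal protein medians change side between the arrays.

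The test that the series allows sets ptc5 against the other mutants, so that the shared wt RNA drops out. Limma was fitted to the 5 mutant means of the 3606 genes with a value on all 10 arrays, ptc5 minus the mean of ptc1 to ptc4, with p-values adjusted over all 3606. PTC5 was the gene that passed: its log2 ratio averaged −2.38 in ptc5 and 0.06 in the other 4. The fall was 2.44 ± 0.19 (SE, limma, adjusted p = 0.0040, and between 5.88e-08 and 0.0241 in the alternative fits planned in advance). Thus 1 gene, 0.0277%, was lower and 0 were higher, with 79 (2.19%) and 6 (0.166%) at an unadjusted p under 0.05. The smallest adjusted p for PTC5 came from a fit with the 10 arrays as samples, which counts technical repeats as replicates. The fit on mutant means has 3 residual degrees of freedom and takes ptc5 to vary like the others. Of the 30 genes 2-fold apart from wt, 12 could be tested. HSP12 and PHO84 differed from the other mutants by −0.39 ± 1.31 and 0.47 ± 0.52 (SE), within the spread among mutants.

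With each direction ranked by p separately, the 7 lower genes after PTC5 and the first 8 higher genes follow. None of these passed (limma, adjusted p = 0.999 each). Further lower genes, YHR218W among them, had a smaller p than any higher gene. WHI5, the repressor of cell cycle Start, averaged −0.63 in ptc5 and 0.05 in the others, a difference of −0.67 ± 0.15 (SE). NGL3, an endonuclease-like gene, averaged −0.96 in ptc5 and −0.17 in the others. CEF1, a splicing factor, MET30, an F-box protein, LAS17, an actin regulator, and PPZ2, a protein phosphatase, differed by −0.56, −0.56, −0.58 and −0.60. YHL050C differed by −0.78 ± 0.21. On the higher side CRM1, the main nuclear export receptor, averaged 0.44 in ptc5 and −0.03 in the others, TOM1, a ubiquitin ligase, 0.37 and −0.06, and YBL077W 0.40 and −0.01. MKK1, a kinase of the cell wall pathway, TRM732, MRP17, RRG1 and MMS2 differed by 0.40, 0.45, 0.34, 0.38 and 0.34. PTC6 differed by −0.45 ± 0.15, and the pyruvate dehydrogenase kinase genes PKP1 and PKP2 by −0.39 ± 0.19 and −0.19 ± 0.17 (SE). These differences did not pass either. PKP2 averaged −0.24 in ptc5 and −0.22 in ptc4.

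Array numbers pair the arrays, so a second fit took the 10 arrays as samples and their number as a replicate block. That fit called 18 lower genes, 0.499%, and 3 higher ones, 0.0832%. Its spread is that between dye-swapped arrays, read here as technical repeats of 1 extract. Its p-values thus do not cover the spread among extracts. Each call was then refitted without each other mutant in turn, a step chosen after seeing the data. Of the 21 calls 5 stayed in all 4 refits: PTC5, WHI5, YHL049C, YHL050C and YHR218W, the last 3 being chromosome-end frames. Whether the probes of these 3 frames share hybridisation was not tested, so they may not be separate calls. In the fit with all mutants WHI5 was lower in ptc5 by −0.67, YHL049C by −1.15, YHL050C by −0.78 and YHR218W by −0.96 (limma with the replicate block, adjusted p between 0.012 and 0.016, against 0.999 for each in the fit on mutant means).

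For the other 16 calls adjusted p rose above 0.05 without at least 1 other mutant. Such a refit also has fewer arrays, and some differences changed little in size. Without ptc3, NGL3 went from −0.78 to −0.73 and YHR219W from −0.67 to −0.61. FIT3 was higher in ptc5 by 0.89, but by 0.57 without ptc1 (limma with the replicate block, adjusted p = 0.014 and 0.32), and ptc4 at 1.515 was close to ptc5 at 1.55. YPS3, a wall protease gene, averaged −0.61 in ptc5, against 1.92, 0.155, 0.06 and −0.19 in ptc1 to ptc4. Its difference was −1.09, and −0.62 without ptc1 (limma with the replicate block, adjusted p = 0.0016 and 0.089). CMK2, a calmodulin kinase gene, averaged −0.97 in ptc5, against 0.46, −0.46, 0.05 and −0.80 in ptc1 to ptc4, and its difference of −0.79 became −0.57 without ptc1 and −0.71 without ptc3 (limma with the replicate block, adjusted p = 0.046, 0.42 and 0.12). HSP30 differed by −0.87, and by −0.57 without ptc3 (limma with the replicate block, adjusted p = 0.015 and 0.12). AGP1 differed by −0.97, and by −0.70 without ptc1 (limma with the replicate block, adjusted p = 0.013 and 0.12). PTC3 and PTC1, the other 2 higher genes, averaged −7.85 in ptc3 and −1.91 in ptc1, the strains named for them, and differed by 0.00 and 0.20 without those strains. Without ptc3, adjusted p was also above 0.05 for PAU1, PAU6, PAU12, PAU21, PAU24, YHR219W, NGL3, RFX1, a repressor of DNA damage genes, and AMF1, an ammonium transporter. Of these, PAU1, PAU6 and RFX1 were also lost without ptc1, and YHR219W without ptc4.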

How the data were processed

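The authors deposited, for each of 10 two-colour hybridisations, a log ratio with the mutant on top, taken here as log2. Per the labels, the authors made cDNA from 8 µg of total RNA and left out spots under 120 µm across or under 150 intensity units in Cy3 and Cy5. How scans were corrected and normalized, and the log base, is not given in the sources used here. The direction was taken from the titles and from PTC5, negative on both ptc5 arrays. Of 6212 identifiers, 5662 matched a RefSeq locus tag of assembly R64 and 550 kept the deposited name. No build is named, so no coordinates are given and R64 served for names and gene order. No sequence table was used here.

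Values were used without further normalization. Limma 3.58.1 in R 4.3.3 tested ptc5 against the other mutants (Benjamini-Hochberg, 0.05) and was tested on simulated data. Precision is limited by how few arrays there are. A p-value from the mutant means covers only the spread among ptc1 to ptc4, different mutants with 1 extract each. In the fits on 10 arrays it covers only the spread between dye-swapped arrays, which may be technical. Array 1 minus array 2 went together in each of the 10 pairs of mutants (r from 0.16 to 0.66), so array numbers, which coincide with dye orientation, were taken to pair the arrays. Genes named are PTC1 to PTC7, all genes 2-fold apart, all pyruvate dehydrogenase genes, up to 6 members by size of any of 48 lists, the 8 smallest p in each direction, and the genes nearest the threshold. YHR218W, YHR219W, EMP46, RFX1, AMF1, the 2 direct neighbours of PTC5 and the 3 beyond them, and list members past the sixth were named after their values were seen. Members and lists were chosen with earlier results of these data known.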

Additional observations from a re-analysis of the deposited data

Results flagged for a closer look

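PTC5 was picked out because its ratio in ptc5 differed from that in the other 4 mutants by the test of the difference itself, at −2.44 on the log2 scale (limma on the 5 mutant means, adjusted p = 0.0040). It is the gene the strain is named for. Groups of 2 arrays are too small for a check of single samples far from the rest.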

How the results depend on the processing

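With each array centred on its median, all 3 higher and 27 lower genes of the 2-fold rule were called again, and 43 of 47 list medians moved by less than the spread between arrays. By the call rules, no gene called at 1.5-fold or 2-fold could change sign with either array alone. The same holds for the median of a list with most members on 1 side of 0 on both arrays. With centring, no such gene or list changed sign. Glycolysis and ribosomal protein medians, outside that set, changed sign between the arrays. For the lists, 33 medians stayed within that spread without array 1 and 39 without array 2. Leaving out 1 array, the 2-fold counts ran from 10 to 11 higher and from 31 to 67 lower, and the 1.5-fold counts from 95 to 146 and from 126 to 244. These rules then ask for 1 array instead of both. Read as natural logarithms, the 2-fold counts were 23 higher and 64 lower and the 1.5-fold counts 75 and 132. With genes on at least 1 array, 7 were higher and 53 lower. Against the other mutants, the fit with the replicate block called 3 higher and 18 lower genes, and 10 arrays without a replicate block called 2 lower, PTC5 and YPS3. Without ptc1, ptc2, ptc3 and ptc4 in turn, the replicate block fit, an alternative chosen after seeing the data, called 2, 6, 2 and 4 higher and 12, 41, 9 and 26 lower genes, and kept 13, 21, 9 and 20 of its 21 calls. The other 9 fits, among them those without each mutant, each called PTC5 alone. Spots left out as dim and the unknown signal over background limit the low genes.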

Other observations

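Further lists were read in the same way. Chaperone genes had a median log2 ratio of 0.11 over 18 of 22, with 9 above 0 on both arrays and 4 below. The shares over all genes were 27.8% above and 23.3% below. KAR2, the chaperone of the endoplasmic reticulum, was at 0.27 and 0.57, and SSE2, of the Hsp110 family, at −0.82 and −0.13. Ergosterol genes had a median of 0.12 over 19 of 24, at 0.27 on array 1 and 0.006 on array 2. Cell wall integrity outputs were at 0.03 over 17 of 25, with the kinase gene SLT2 at −0.003 and 0.12. The median of that list was 0.78 in ptc1. Calcineurin genes had a median of −0.04 over 11 of 17, where CMK2 at −0.79 and −1.16 and RCN2, a regulator of calcineurin, at −0.45 and −0.71 were the lowest.

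G1/S genes had a median of −0.01 over 16 of 20, with WHI5 at −0.735 and −0.52 against CLN3, the cyclin that acts upstream of it, at 0.19 and 0.22. Histone genes averaged between −0.20 and 0.10. Among hexose transporters and sensors 10 of 20 were measured, at a median of −0.175, with HXT17 at −1.39 and −0.36 and HXT3, a low-affinity carrier, at 0.32 and 0.31. Of 6 genes that mark growth after glucose runs out, FBP1 and JEN1 were at −0.69 and −0.27 and at −0.40 and −0.23, MLS1 was at 0.54 and 0.30, and 3 were not measured on both arrays. Of the strain marker genes ADE2 was at −0.52 and −0.71, LYS2 at 0.30 and 0.36, and HIS3, TRP1 and URA3 averaged between −0.10 and −0.07.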
